A study of Mus musculus with 288 samples.

Results

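The genes described are those of the cytosolic ribosomal proteins in cultured mouse macrophages. Gene rows whose symbol begins with Rpl or Rps and a number were used along with Rplp0, Rplp1, Rplp2 and Rpsa, leaving out ribosomal S6 kinases and rows marked as pseudogenes. A member also needed at least 100 UMI over all wells, a UMI being a distinct molecular barcode and so 1 captured mRNA molecule. Of 23481 gene rows, 84 matched by name and 80 passed the UMI minimum, 48 of the large subunit and 32 of the small subunit. The 4 rows left out were Rps4y2 with 36 UMI, Rpl10l with 3, and Rpl39l and Rpl3l with 0, whereas the lowest member, Rpl7l1, had 1197. The choice of rows used no difference between groups. All 80 members passed the filter on low counts in every comparison. The macrophages were grown from the bone marrow of C57BL/6 mice aged 12 weeks with M-CSF over 7 days. They were pretreated with DMSO, the solvent control, or for 24 h with 100 nM dCA or 1 µM of BRD-6989, which the labels name as inhibitors of the kinase CDK8. Each pretreatment held 96 wells, with 8 wells that received no stimulus (NoStim) and 8 for each of LPS, MDP_LPS, Pam3cys, CpG, R848, Poly(I:C), FLA, SeV, Zymosan, TDB and MDP. The 8 wells of a condition were collected at 15, 30, 45, 60, 90, 120, 150 and 180 min, 1 well per time. All cells, the DMSO and NoStim wells included, carried the same culture history, and no label ties wells to separate animals or cultures.

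Ribosomal proteins assemble with ribosomal RNA into the small subunit, which reads the mRNA, and the large subunit, which joins amino acids. Their mRNAs are among the most abundant of a cell and carry a 5′ terminal oligopyrimidine tract (TOP), a C at the first base followed by a run of C and T. The tract places their translation under control of the kinase mTOR through the RNA-binding protein LARP1. In macrophages, stimuli that engage Toll-like receptors activate mTOR, and selected ribosomal proteins such as RPL13A also have roles outside the ribosome.

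Start-site windows are shown first, because the tract is what these mRNAs share by sequence. RefSeq promoter entries (build GRCm38.p6) were matched by symbol for 60 of the 80 members, with 71 annotated starts in all. Each window holds 30 bases, 15 before the annotated start and 15 from it on, written 5′ to 3′ on the gene's strand. Capitals mark the longest run in a window that begins with C and goes on with at least 5 bases that are each C or T. The first 4 are members that rose under an inhibitor or with Poly(I:C). The next 4 also rose with dCA, and their values differed between inhibitors or between wells. The last 2 are named as like another member, Rpl22 and Rpl7. Risers thus stand among the windows with a run and among those without.
Rpl15: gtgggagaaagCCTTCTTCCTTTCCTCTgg
Rps18: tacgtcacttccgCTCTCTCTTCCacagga
Rpl12: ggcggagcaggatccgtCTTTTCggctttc
Rpl28: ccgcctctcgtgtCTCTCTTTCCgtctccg
Rpsa: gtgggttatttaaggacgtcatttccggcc
Rps15: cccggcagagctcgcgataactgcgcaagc
Rpl41: cacacgggccggctcggaagtgacgacacc
Rpl5: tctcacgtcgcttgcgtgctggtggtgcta
Rpl22l1: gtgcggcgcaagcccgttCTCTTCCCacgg
Rpl7l1: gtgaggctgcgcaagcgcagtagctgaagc
These windows lie for Rpl15 at chr14:18270972-18271001 on the minus strand, Rps18 at chr17:33955651-33955680 on the minus strand, Rpl12 at chr2:32961697-32961726 on the plus strand, Rpl28 at chr7:4792950-4792979 on the plus strand and Rpsa at chr9:120127751-120127780 on the plus strand. The others lie for Rps15 at chr10:80292416-80292445 on the plus strand, Rpl41 at chr10:128549154-128549183 on the minus strand, Rpl5 at chr5:107900513-107900542 on the plus strand, Rpl22l1 at chr3:28805493-28805522 on the plus strand and Rpl7l1 at chr17:46782642-46782671 on the minus strand. A run of this kind began in the window on the gene's strand in 33 of 71 member starts (46.5%) and in 21.1% of all 32851 starts in the table. Annotated starts can lie some bases from the start in use, so a window without a run says only that these letters are not there. Over the whole 300 bases of an entry and on either strand, the letters CCGGAAG, the core of ETS factor sites, were in 26 of 71 member entries (36.6%) against 8.86% of all entries. The letters AAGATGGC, a form of the YY1 site that can share its AAG with the former, were in 8 of 71 (11.3%) against 2.75%. These shares are descriptions and carry no test.

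A well held 37542 to 127223 UMI in all (median 77485), and the members together had 1687 to 7202 UMI per well. Rn45s, the precursor of ribosomal RNA, took 52.7% ± 6.88 of all UMI in DMSO wells, 49% ± 7.04 in dCA wells and 43.6% ± 6.75 in BRD-6989 wells (SD, n = 96). Levels are therefore given as CPM, UMI counts scaled to a total of 1000000 per well or sum without Rn45s. Each pretreatment was 1 plate, each stimulus 1 plate column and each time 1 plate row, with the same well tags on all 3 plates. Inhibitor and plate, stimulus and column, and time and row cannot be told apart, and p-values measure the spread between wells or sums of wells, which may be technical. A level is a share of the RNA of a whole well, so fewer cells with an mRNA and less of it per cell cannot be told apart. Of 10 macrophage marker rows, 0 were without UMI, and their summed level ran from 3715 to 7071 CPM in DMSO wells, 3664 to 6640.4 with dCA and 4204 to 6978 with BRD-6989. Over all wells, 11 neutrophil marker rows summed to 189 UMI with Elane, Prtn3 and Ctsg at 0, and 7 dendritic cell rows to 229 UMI with Flt3, Cd209a and Clec9a at 0 and 210 of the UMI from Xcr1. The sums were 104 UMI for 10 lymphocyte rows with Cd3e at 0 and 80 of the UMI from Cd3d, 36 for 7 stromal rows with Dcn, Lum and Pdgfra at 0, and 1 for 8 erythroid and mast cell rows.

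The members spanned a wide range of abundance. As 1 tag is read per molecule at the 3′ end, levels need no division by length, although capture of a 3′ end can differ between genes. Over the 36 sums of 8 wells, mean levels ran from 104 to 3069.5 CPM with a median of 959. Rpl41, which encodes a very short basic protein of the large subunit (chr10:128548110-128549168), was the most abundant at 3069.5 CPM, and Rplp1 at 2290.2, Rps27a at 2215 and Rpsa at 2071 were also among the most abundant. RPS27A is made as a fusion to ubiquitin, and RPSA binds laminin outside the ribosome. The lowest were Rpl7l1 (104), Rpl22l1 (162) and Rps27l (334), each named as like another member, with Rpl37 (334) and Rpl9 (463). The namesake members stood higher, with Rpl7 at 843, Rpl22 at 511 and Rps27 at 1274 CPM. The genes of the 3 stalk proteins, which recruit elongation factors, differed in level: Rplp0 had 1514, Rplp1 2290.2 and Rplp2 645. The 4 X-linked members Rpl10, Rpl36a, Rpl39 and Rps4x had 1654, 603, 977 and 1488 CPM. Ribosomal protein genes have many processed pseudogenes with near-identical 3′ ends, and how reads shared with them were assigned is not given in the sources used here, so each level is uncertain by that share.

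Together the 80 members made up 8.12% ± 1.08 of the UMI without Rn45s in DMSO wells, 9.46% ± 1.07 in dCA wells and 9.18% ± 0.99 in BRD-6989 wells (SD, n = 96 each). The lowest, median and highest well had 5.57%, 8.13% and 10.6% in DMSO, 7.09%, 9.47% and 12.1% in dCA, and 6.73%, 9.24% and 11.6% in BRD-6989. Single wells of the 3 plates overlapped widely. At the same stimulus and time, the share was above DMSO in 86 of 96 wells for dCA and in 86 of 96 for BRD-6989, and the mean of a condition was above DMSO in 12 of 12 conditions for each. Large and small subunit members kept pace: large subunit members took 4.65%, 5.43% and 5.21% in DMSO, dCA and BRD-6989, and small subunit members 3.47%, 4.03% and 3.97%. Across the 96 wells of a plate the shares of both subunits correlated at r = 0.87 in DMSO, 0.86 in dCA and 0.87 with BRD-6989, a description of wells that share plate, depth and total.

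**Figure D1:**
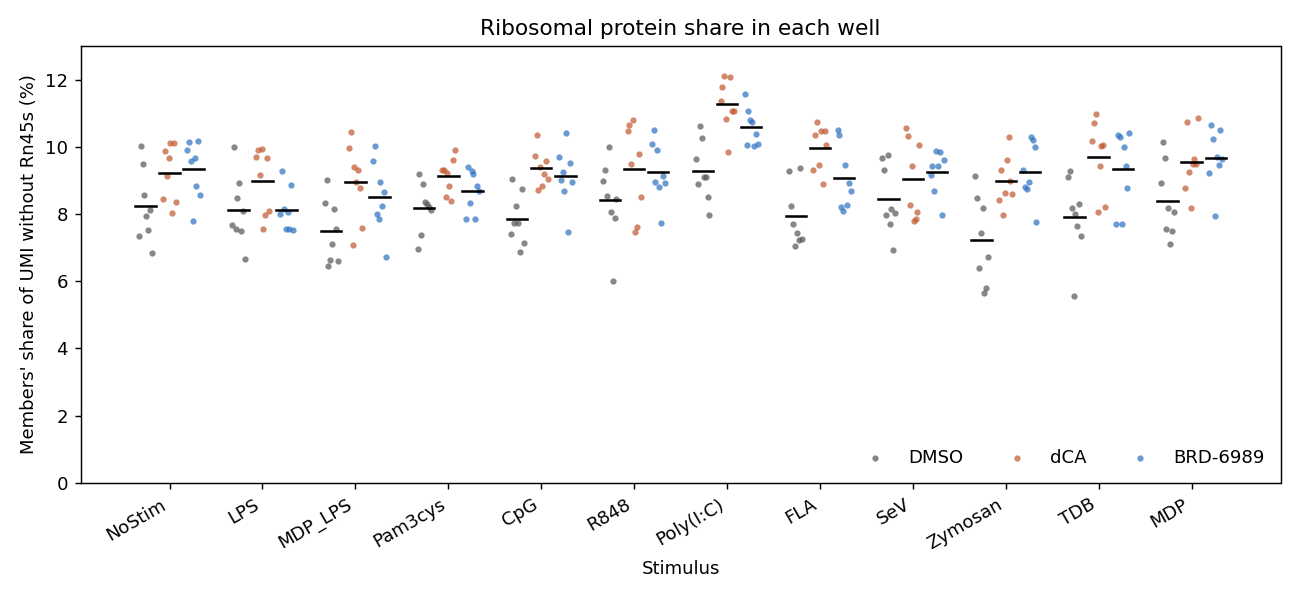
Share of the 80 members in the UMI without Rn45s (vertical axis, percent) in each well, by stimulus (horizontal axis) and pretreatment (colour). Points are wells in order of time within a group of 8 and black lines are group means. Means of dCA and BRD-6989 lie above DMSO for every stimulus, and Poly(I:C) has the highest mean on each plate.

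Levels under dCA and DMSO were compared in the 12 matched conditions, each a sum of 8 wells, with the condition as a block. With dCA, 69 of 80 members rose and 0 fell, beside 7.48% of 7785 genes that rose and 5.95% that fell. The median log2 change of the members was 0.28, and that of all genes tested was -0.0078. All but 1 member had a positive value, and 39 of 48 large subunit and 30 of 32 small subunit members passed the test. Rpl15, a core protein of the large subunit (chr14:18267823-18270986), had 460.3 ± 81 CPM in DMSO and 652 ± 65.1 in dCA (SD, n = 12). Its log2 change was 0.58 ± 0.083 (adjusted p = 2.5e-07) by edgeR's quasi-likelihood test with Benjamini-Hochberg adjustment. Its sums ran from 290.3 to 605 in DMSO and from 519.9 to 771 in dCA, so the groups overlapped, yet dCA was the higher in 12 of 12 conditions. Rpl36 (chr17:56610094-56614246) went from 595 ± 87.6 to 820.0 ± 118, a change of 0.54 ± 0.069 (adjusted p = 1.97e-08). Rpl12, at the base of the stalk, went from 1117 ± 135 to 1457 ± 171, a change of 0.46 ± 0.055 (adjusted p = 3.09e-09). These 3 were higher in dCA in 12 of 12 conditions. Rpl30 changed by 0.50 ± 0.071, Rps18 of the small subunit head by 0.49 ± 0.066 and Rpl9 by 0.47 ± 0.088, also in 12 of 12 conditions.

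The rise was shared by members of varied roles. All 3 stalk genes rose, Rplp0 by 0.26 ± 0.052, Rplp1 by 0.35 ± 0.049 and Rplp2 by 0.29 ± 0.076. Rps6, the substrate of S6 kinase, rose by 0.31 ± 0.067, and the X-linked Rps4x by 0.38 ± 0.054. Rpl5 and Rpl11, which hold the 5S ribosomal RNA and bind MDM2 when free, rose by 0.26 ± 0.053 and 0.32 ± 0.055. Rps19, mutated in Diamond-Blackfan anaemia, rose by 0.30 ± 0.059, Rps27a by 0.36 ± 0.050 and Rpl39 of the peptide exit tunnel by 0.39 ± 0.069. Smaller changes past the threshold were those of Rpl10 (0.16 ± 0.052), Rpl13a (0.18 ± 0.058), Rpl7 (0.19 ± 0.063), Rps3 (0.22 ± 0.059) and Rps27 (0.23 ± 0.055). Of the genes named as like another member, Rps27l rose by 0.31 ± 0.11 (adjusted p = 0.0357) in the reported fit. Rpl22l1 had 0.31 ± 0.14 (adjusted p = 0.178) and Rpl7l1 -0.11 ± 0.19 (adjusted p = 0.798). Of 24 alternative fits, Rpl10 passed in 8, Rpl13a in 10, Rpl7 in 7 and Rps27l in 8, so these calls rest on the settings used. Rpl7l1 was the member with a negative value, and also the one with the fewest UMI. Rpl3, which lines the peptidyl transferase centre, had 0.17 ± 0.079 (adjusted p = 0.154) and Rpl22 0.22 ± 0.088 (adjusted p = 0.0907), neither past the threshold. The Rn45s share was lower on the dCA plate than on the DMSO plate (values above), and with that share as a covariate 35 members rose and 0 fell, beside 4.51% and 3.2% of all genes, and the median change of the members was 0.21. Of those 35, 34 were among the 69. Of 9 macrophage markers tested, Cd68 and Emr1 rose with dCA, by 0.47 ± 0.10 and 0.46 ± 0.094, and Csf1r and Itgam had -0.23 ± 0.064 and -0.47 ± 0.10, and their part in the result was not tested. Without TMM scaling, 52 members rose and 0 fell, and of all genes 455 rose and 645 fell, against 582 and 463 with it.

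With BRD-6989, 50 of 80 members rose and 0 fell, beside 7.94% of 7785 genes that rose and 7.42% that fell. The median log2 change was 0.22 for the members and 0.011 for all genes tested, and 27 of 48 large subunit and 23 of 32 small subunit members passed. Rpl15 had 661 ± 102 CPM in BRD-6989, a change of 0.57 ± 0.082 (adjusted p = 3.13e-07), with 11 of 12 conditions higher. Its sums ran from 531 to 796 and overlapped with those of DMSO given above. Rpl23, at the interface between the subunits, had 657 ± 93.8 CPM in DMSO and 928 ± 145 with BRD-6989 (SD, n = 12), a change of 0.53 ± 0.067 (adjusted p = 8.42e-09). Its sums covered 488 to 823 in DMSO and 706 to 1275 with BRD-6989, and BRD-6989 was the higher in 12 of 12 conditions. Rpl9 changed by 0.57 ± 0.087, Rps18 by 0.46 ± 0.065 and Rps2, near the mRNA entry site, by 0.46 ± 0.062.

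Other members stayed near 0 with BRD-6989. Rplp0 had 0.039 ± 0.051 (adjusted p = 0.709), Rpl3 0.037 ± 0.079 (adjusted p = 0.83) and Rpl13a -0.044 ± 0.058 (adjusted p = 0.712). Rpsa had -0.11 ± 0.048 (adjusted p = 0.109), with BRD-6989 the lower in 12 of 12 conditions, and Rps15, of the small subunit head near the decoding site, had -0.14 ± 0.063 (adjusted p = 0.137). Neither passed the threshold here, and with DESeq2 both were called lower. Without TMM scaling 37 members rose and 3 fell, and of all genes 515 rose and 661 fell, against 618 and 578 with it. Rplp2 rose by 0.36 ± 0.075, Rps6 by 0.22 ± 0.066, Rps27a by 0.22 ± 0.050, Rpl5 by 0.19 ± 0.053, Rpl7 by 0.22 ± 0.063 and Rpl10 by 0.18 ± 0.051. Rplp1 (0.15 ± 0.048), Rps19 (0.17 ± 0.059) and Rps3 (0.17 ± 0.058) passed in the reported fit, but of 24 alternative fits they rose past the threshold in 12, 5 and 7. Rpl11 had 0.067 ± 0.055 (adjusted p = 0.486) and Rps27 0.080 ± 0.055 (adjusted p = 0.388). Of the genes named as like another member, Rps27l rose by 0.34 ± 0.10 (adjusted p = 0.0186). Rpl22l1 had 0.22 ± 0.14 (adjusted p = 0.351) and Rpl7l1 -0.11 ± 0.19 (adjusted p = 0.786). The BRD-6989 plate had the lowest Rn45s share of the 3. A fit with that share as a covariate therefore cannot fully separate it from the inhibitor. When each sum's Rn45s share was added as a covariate, 4 members rose and 0 fell, beside 1.53% and 0.835% of all genes, and the members' median was 0.00068. Among these 4, named after their values were seen, were Rpl4 with 0.56 ± 0.12 (adjusted p = 0.00144), Rpl6 with 0.43 ± 0.11 (adjusted p = 0.0199) and Rps27a with 0.43 ± 0.10 (adjusted p = 0.00886). Of the members reported here, the values of 16 that had risen turned negative with the covariate, Rplp1, Rplp2, Rps6, Rps19, Rps27l and Rpl10 among them, and 0 of the 16 passed there. Of 9 macrophage markers tested, 4 rose with BRD-6989, with Lyz2 at 0.32 ± 0.053, and 3 fell, with Csf1r at -0.46 ± 0.064, and their part was not tested either. In a fit of single wells with the same covariate, chosen after the data were seen, 20 members rose and 5 fell with BRD-6989, beside 10.1% and 6.94% of all genes, and 35 rose and 0 fell with dCA, beside 6.96% and 8.83%.

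**Figure D2:**
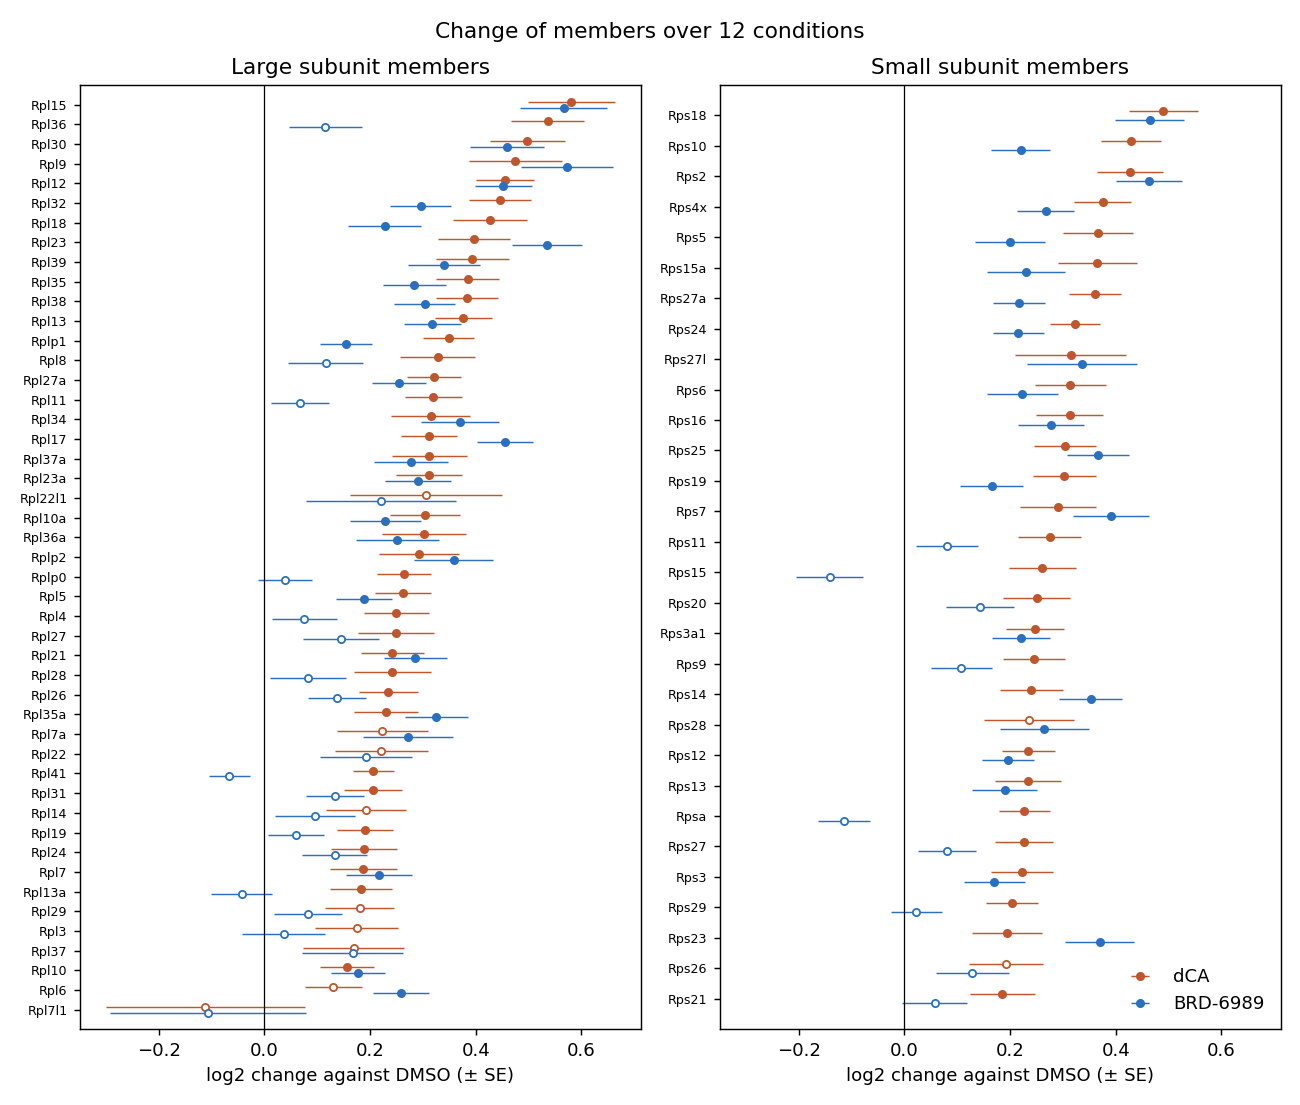
Log2 change of 77 members against DMSO over the 12 matched conditions (horizontal axis, ± SE) for dCA and BRD-6989, with large subunit members at the left and small subunit members at the right, ordered by the change with dCA. Filled points passed an adjusted p of 0.05 by edgeR's quasi-likelihood test, open points did not. All members shown but Rpl7l1 lie above 0 with dCA, and Rpl15 lies at 0.58 with dCA and 0.57 with BRD-6989.

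The inhibitors were then compared directly in the same fit. Their doses differed (100 nM and 1 µM) and each had its own plate, so the comparison is between these wells and not between matched doses. Of 80 members, 11 were higher with dCA and 1 with BRD-6989, beside 1.26% and 0.694% of 7785 genes in those directions. Rpl36 was higher with dCA by 0.42 ± 0.068 (adjusted p = 3.17e-05), Rps15 by 0.40 ± 0.063 (adjusted p = 1.67e-05), Rpsa by 0.34 ± 0.048 (adjusted p = 2.47e-06) and Rpl41 by 0.27 ± 0.039 (adjusted p = 2.47e-06), each in 12 of 12 conditions. For Rpsa the levels were 2056 ± 209 in DMSO, 2306 ± 458 in dCA and 1852 ± 279 with BRD-6989, and for Rpl41 3041 ± 208, 3341 ± 324 and 2827 ± 289 CPM (SD, n = 12). The ranges of the groups overlapped for both genes. Rpl11, Rpl13a, Rplp0 and Rplp1 were also higher with dCA, by 0.25 ± 0.054, 0.23 ± 0.058, 0.23 ± 0.051 and 0.19 ± 0.048. For Rpl15 the difference was 0.014 ± 0.080 with a 95% interval of -0.14 to 0.17, for Rps18 0.026 ± 0.064 (-0.10 to 0.15) and for Rpl12 0.0032 ± 0.054 (-0.10 to 0.11), none past the threshold. With the stimulus block left out, 4 members were higher with dCA and 1 lower. As single wells, 5 were higher and 7 lower. The shares of all genes under these settings are not given, so these counts cannot be set against them.

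**Figure D3:**
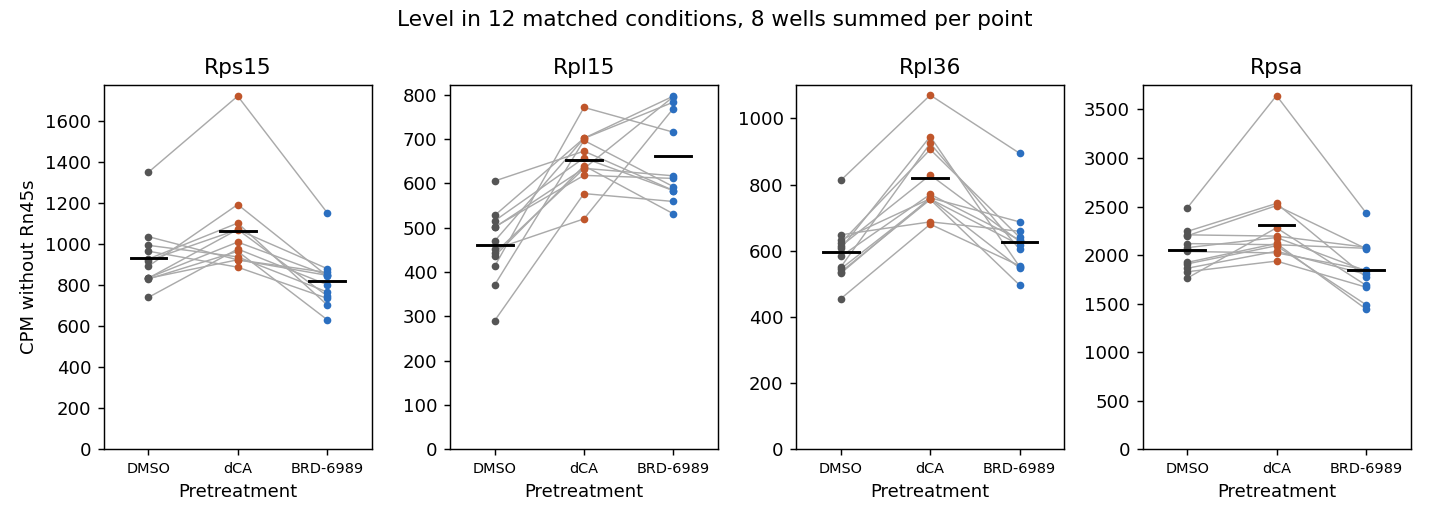
Levels of Rps15, Rpl15, Rpl36 and Rpsa (vertical axes, CPM without Rn45s, from 0) by pretreatment (horizontal axes). Each point is the sum of 8 wells of 1 condition, grey lines join the 12 conditions across plates and black lines are means. The means of Rpl36, Rps15 and Rpsa are highest in dCA, and Rpl15 is higher than in DMSO with both inhibitors.

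Within each plate the members moved against Rn45s. Over 96 wells, the members' share, which is taken without Rn45s in its total, and the Rn45s share correlated at r = -0.81 in DMSO, -0.77 in dCA and -0.75 with BRD-6989 (Spearman's rho -0.81, -0.77 and -0.80). Wells of a plate share library and handling, and no p is given. Of single members, 77 of 80 had a negative correlation with the Rn45s share in DMSO, 76 in dCA and 77 with BRD-6989, with medians of -0.38, -0.34 and -0.32. Rpl4, singled out after its values were seen, had the highest correlation on all 3 plates, at r = 0.33, 0.56 and 0.37. The part of the Rn45s share in the differences between pretreatments was not tested beyond the covariate fits. As that share also differed between the plates, those fits cannot fully separate it from pretreatment.

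**Figure D4:**
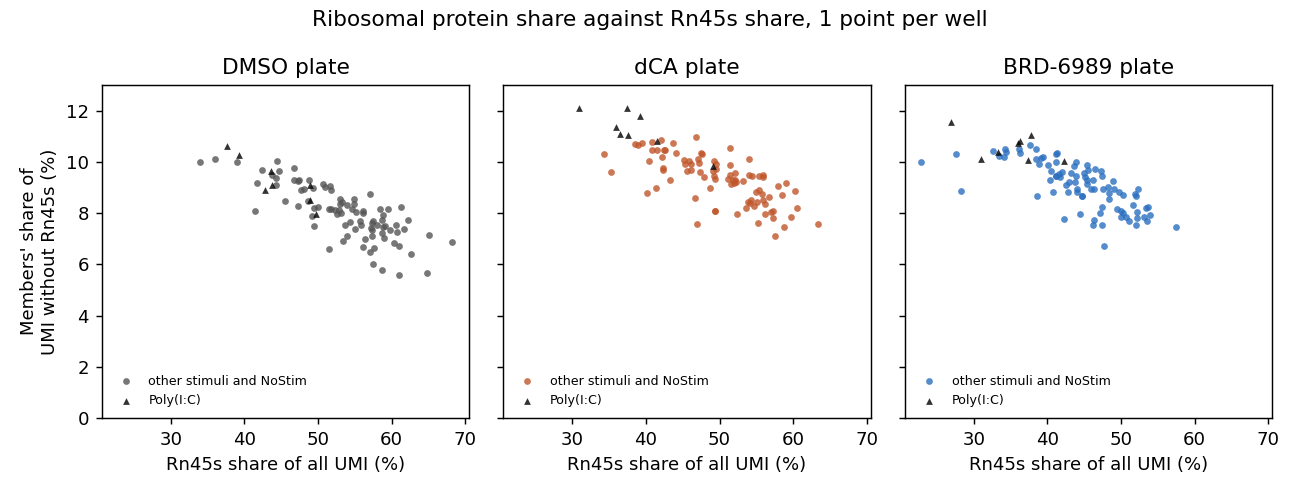
Members' share of the UMI without Rn45s (vertical axis, percent) against the Rn45s share of all UMI (horizontal axis, percent), 1 point per well and 1 panel per plate. Triangles are the 8 Poly(I:C) wells of each plate. On every plate the share is lower where Rn45s is higher, with r from -0.81 to -0.75, and on every plate the mean Rn45s share of the Poly(I:C) wells is below that of the NoStim wells, while the 90 min Poly(I:C) well of dCA, at 49.2%, lies above its plate mean.

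In the 24 NoStim wells, which test the inhibitors without a stimulus, few members passed the test. With dCA, 0 of 80 passed in either direction by edgeR (13 at an unadjusted p under 0.05), beside 0.771% of 5834 genes that rose and 0.137% that fell, and DESeq2 called 1. The members' median change was 0.20, against -0.017 for all genes tested. With BRD-6989, 3 of 80 rose and 0 fell, beside 0.754% and 0.309% of genes, with medians of 0.24 and 0.069. Rpl17, at the exit of the peptide tunnel, had a lowest, median and highest level over 8 wells of 549, 1398 and 2385 CPM in DMSO and 1378, 2223 and 3195 in BRD-6989, a change of 0.69 ± 0.17 (adjusted p = 0.00651) with BRD-6989 higher at 6 of 8 times. Rpl39 had 282, 657 and 967 in DMSO and 726, 1185 and 1555 in BRD-6989, a change of 0.83 ± 0.23 (adjusted p = 0.0342) at 7 of 8 times. With the covariate for Rn45s, 0 of the 3 passed, and on total reads 1 member rose. Rpl39 passed in 5 of 13 alternative fits. The wells of both groups overlapped for Rpl17 and for Rpl39.

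Stimuli were compared with NoStim in the 180 wells of 60 min and later, with pretreatment and time as factors. As a mean over the 11 stimuli, 0 of 80 members passed by edgeR (4 at an unadjusted p under 0.05) and 0 by DESeq2, beside 1.7% of 5771 genes that rose and 0.589% that fell. The median change was 0.0085 for the members and -0.062 for all genes tested. Poly(I:C), a double-stranded RNA analogue, stood apart: 15 of 80 members rose and 0 fell, beside 2.03% and 0.381% of genes, with a median of 0.25 for the members and -0.016 for all genes. Of the 15, 11 were large and 4 small subunit members. Rplp1 of the stalk (chr9:61913283-61914510) had a lowest, median and highest level over 5 NoStim wells of 1411, 1832 and 2591 in DMSO, 1526, 2256 and 2644 in dCA and 1869, 2043 and 2670.5 with BRD-6989. With Poly(I:C) these were 2591, 2649.7 and 3748 in DMSO, 3569, 4042 and 4439.7 in dCA and 2841, 3314 and 3753 with BRD-6989. The groups did not overlap on the dCA and BRD-6989 plates and touched on the DMSO plate, and Poly(I:C) was the higher in 15 of 15 matched wells, a log2 change of 0.78 ± 0.11 (adjusted p = 1.79e-09). Rpl28 (chr7:4792965-4794547) had the largest change of 0.81 ± 0.17 (adjusted p = 0.000762), from 609.8 ± 195 to 1034 ± 219 CPM (SD, n = 15), higher in 14 of 15 wells. Rpsa changed by 0.47 ± 0.12 (adjusted p = 0.00973).

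The members' share was higher in Poly(I:C) than in NoStim wells at the first time too. Over the 8 times it was 8.23% ± 1.09 in NoStim and 9.27% ± 0.877 in Poly(I:C) wells in DMSO, 9.21% ± 0.844 and 11.3% ± 0.747 in dCA, and 9.33% ± 0.851 and 10.6% ± 0.549 in BRD-6989 (SD, n = 8). Poly(I:C) was above NoStim at 7 of 8 times on each plate. At 15 min the share was 9.64%, 11.4% and 11.6% with Poly(I:C), against 7.35%, 8.45% and 9.9% in NoStim. Poly(I:C) was 1 plate column, so a response to it and an offset of that column cannot be told apart. The Rn45s share of the Poly(I:C) column was lower, at 44.3% ± 4.56 against 53.5% ± 6.28 in DMSO, 38.5% ± 5.26 against 52.3% ± 4.21 in dCA, and 35.1% ± 4.7 against 45.1% ± 5.07 in BRD-6989. With that share as a covariate 2 members rose and 2 fell, beside 1.21% and 0.139% of all genes. Rplp1 had 0.59 ± 0.11 (adjusted p = 4.25e-05) and Rps15 0.57 ± 0.14 (adjusted p = 0.0129), while Rpl23a had -0.68 ± 0.17 (adjusted p = 0.0102) and Rps18 -0.81 ± 0.19 (adjusted p = 0.00375). Of 9 macrophage markers tested, 2 rose and 0 fell with Poly(I:C), with a median of 0.11 over the 9. The risers were Lyz2, by 0.86 ± 0.13, and Cd14, by 0.76 ± 0.23. In DMSO wells alone 1 member rose, Rpl35. Without the dCA plate 7 rose, without the BRD-6989 plate 5 and without the DMSO plate 10, counts for which no share of all genes is given.

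The other stimuli moved few or no members. With LPS, the ligand of TLR4, 1 member fell and 0 rose, beside 1.16% of genes that fell and 3.26% that rose. It was Rpl13a, whose protein is known to leave the large subunit in interferon-treated macrophages and to silence inflammatory mRNAs, with 1320.5 ± 361 CPM in NoStim and 945 ± 294 in LPS (SD, n = 15), a change of -0.46 ± 0.14 (adjusted p = 0.0418). LPS was the lower in 12 of 15 matched wells, and the call ended without any 1 of the 3 plates. With R848, 1 member rose and 1 fell, beside 2.25% and 0.537% of genes. The riser was Rpl5, described next, and Rpl36a fell by 0.70 ± 0.21 (adjusted p = 0.0373), a call that also ended without any 1 of the plates. For MDP_LPS 0 members passed (6 at an unadjusted p under 0.05), beside 3.14% of genes that rose and 0.503% that fell. For Pam3cys 0 passed (4 at that level) beside 1.78% and 0.312%, for CpG 0 (6) beside 1.28% and 0.399%, and for FLA 0 (7) beside 1.14% and 0.156%. For SeV 0 passed (1) beside 0.173% and 0%, for Zymosan 0 (5) beside 2.5% and 0.554%, for TDB 0 (5) beside 0.0866% and 0%, and for MDP 0 (2) beside 0.121% and 0.0173%. Over these 8 stimuli the members' medians lay between -0.070 and 0.053. Only edgeR was run on single stimuli.

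Rpl5 was high in the same well on all 3 plates. In R848 wells at 15, 30, 45, 60, 90, 120, 150 and 180 min, its level in DMSO was 1630.1, 1465, 1378, 2750.0, 1368, 8642, 1377 and 1832 CPM. In dCA it was 2055, 2296, 2117, 1086, 2778, 7429, 2015 and 1818, and in BRD-6989 1598, 1806, 1842, 1362, 2359, 8988, 2026 and 1518. The well of 120 min thus stood at 5.36, 3.85 and 5 times the median of its plate in DMSO, dCA and BRD-6989. It rested on 411, 330 and 477 UMI. Reads per UMI for Rpl5 there were 6.36, 6.63 and 6.02, against 5.57 for Rpl5 over all wells. In the other 95 wells of a plate the level never passed 4623 in DMSO, 4453 in dCA and 3479 with BRD-6989. Among 7680 pairs of a member and a plate position, this was the 1 pair above 2 times the plate median on all 3 plates. Above 1.5 times there were 25 such pairs, most of them in the Poly(I:C) column, and the second highest stood at 1.97. Rpl5 was also above its plate median in the CpG wells at 30 min, with 3055, 4453 and 3338 CPM. The R848 change of 1.00 ± 0.17 (adjusted p = 6.04e-06), with R848 above NoStim in 11 of 15 matched wells, rested on the 120 min wells: without that time 0 members passed. Position and well tag were the same on the 3 plates, and their part was not tested.

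**Figure D5:**
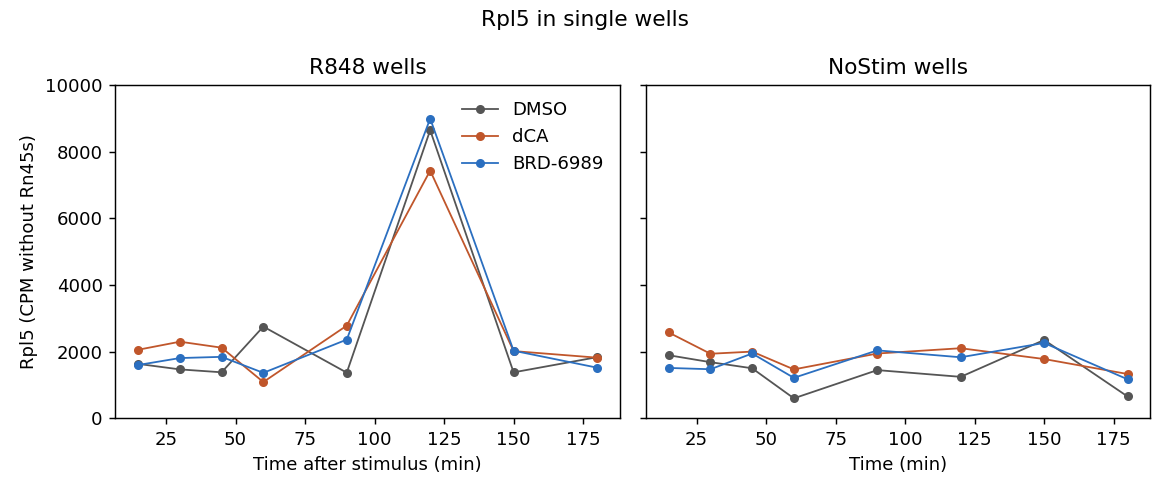
Rpl5 (vertical axis, CPM without Rn45s) by time in minutes (horizontal axis) in R848 wells at the left and NoStim wells at the right, 1 point per well and 1 line per plate. The 120 min R848 wells reach 8642, 7429 and 8988 in DMSO, dCA and BRD-6989, above every other well shown.

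Whether an inhibitor changed the members' response to stimuli was tested as an interaction in the same 180 wells. For the mean response over 11 stimuli, 0 of 80 members passed for dCA (7 at an unadjusted p under 0.05) and 0 for BRD-6989 (3), beside 0% of 5771 genes in either direction. In the joint test of all 11 responses, 0 members passed for dCA (6 at that level) and 0 for BRD-6989 (3), again beside 0% of genes. Only edgeR was run for these tests. A miss here does not show that the responses were alike, since single members had interaction values from -0.80 to 0.77 for dCA and from -0.89 to 0.68 for BRD-6989 without passing.

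Over the 8 times, 11 of 80 members fell and 0 rose, beside 4.91% of 5864 genes that fell and 6.43% that rose. The median slope was -0.039 log2 units per hour for the members and -0.027 for all genes tested. Rpl12 had 1453 ± 307 CPM at 15 min and 1182 ± 429.8 at 180 min (SD, n = 36 wells), a slope of -0.11 ± 0.024 (adjusted p = 0.000234). Rpl14 had 747 ± 209 CPM at 15 min and 618 ± 239.9 at 180 min, a slope of -0.094 ± 0.031 (adjusted p = 0.0264). Rpl29 had 797 ± 222 CPM at 15 min and 718 ± 223 at 180 min, a slope of -0.086 ± 0.028 (adjusted p = 0.0281). For each of these 3, the means of the first and last time differed by less than 1 SD of the wells. Rpsa (-0.073 ± 0.020) and Rpl13a (-0.083 ± 0.023) also fell, as did Rps15, Rps21 and Rps29. The members' share was highest in the 30 min row and lowest in the 120 min row, at 9.8% and 8.43% over the plates. Of 8 alternative fits, Rpl14 and Rps21 each passed in 2 and Rpsa and Rps29 each in 4. Without the 30 min wells 2 members fell, Rpl12 among them, and without the DMSO plate or in NoStim wells alone 0 fell. The count thus changed with the wells used. These fits held fewer wells, and the shares of all genes in them are not given, so the counts cannot be set against those.

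Other genes of the translation machinery were read from lists chosen by function. Their counts stand beside 7.48% of 7785 genes that rose and 5.95% that fell with dCA, and 7.94% and 7.42% with BRD-6989. Of 4 further genes of cytosolic ribosomal proteins, 3 rose and 0 fell with dCA, among them Gnb2l1, the RACK1 scaffold on the small subunit, by 0.38 ± 0.064 and Fau by 0.21 ± 0.054. With BRD-6989 1 rose and 0 fell, Gnb2l1 by 0.27 ± 0.064. Of 18 other mRNAs known to carry the tract, mostly translation factors, 4 rose and 2 fell with dCA, with median 0.055, and 5 rose and 1 fell with BRD-6989, with median 0.081. With dCA the elongation factor subunit Eef1g rose by 0.57 ± 0.10 and Tpt1 by 0.37 ± 0.044, while Vim, the intermediate filament vimentin, changed by -0.57 ± 0.058. With BRD-6989 the nucleolar chaperone Npm1 rose by 0.62 ± 0.11, and Vim changed by -0.39 ± 0.057. Tpt1 had 0.029 ± 0.044 (adjusted p = 0.751) with BRD-6989 and was higher with dCA than with BRD-6989 by 0.34 ± 0.044 (adjusted p = 2.25e-07). Eef1a1, the main elongation factor, had 0.093 ± 0.033 (adjusted p = 0.0543) with dCA.

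Of 25 other initiation factors tested, 3 rose and 0 fell with dCA, among them Eif1a by 0.45 ± 0.16, and 5 rose and 0 fell with BRD-6989. The counts here and in the lists below stand beside 7.48% of all genes that rose with dCA and 7.94% with BRD-6989. Of 14 regulators of ribosomal protein synthesis, 2 rose and 0 fell with dCA: Myc, a driver of ribosome production, by 0.70 ± 0.17 and Rptor, a subunit of the mTOR complex, by 0.91 ± 0.30. With BRD-6989 1 rose and 0 fell, Larp4 by 0.49 ± 0.14, while Myc had 0.46 ± 0.17 (adjusted p = 0.0553). Larp1 had -0.16 ± 0.17 (adjusted p = 0.656) with dCA and -0.13 ± 0.17 (adjusted p = 0.709) with BRD-6989. Of 44 ribosome biogenesis genes, 2 rose and 0 fell with dCA (Dkc1, the pseudouridine synthase, by 1.13 ± 0.21, and Gar1, its partner, by 1.21 ± 0.39) and 3 rose and 0 fell with BRD-6989, with medians of 0.22 and 0.19. Of 23 genes of RNA polymerases I and III, 1 rose and 0 fell with dCA and 1 rose and 0 fell with BRD-6989. Of 71 mitochondrial ribosomal protein genes, 2 rose and 0 fell with dCA and 3 rose and 0 fell with BRD-6989, with medians of 0.14 and 0.13. Mrps6 had the largest change among those that passed, by 2.01 ± 0.35 with dCA and 2.04 ± 0.34 with BRD-6989. With Poly(I:C), 1 of the 4 further ribosomal protein genes rose, Fau by 0.46 ± 0.13, and Eif1 rose by 0.87 ± 0.21, beside 2.03% of 5771 genes that rose.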

How the data were processed

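UMI counts per gene and well, and total read counts, were deposited by the authors as raw whole numbers from a 3′ digital gene expression assay of polyA RNA. Per the submitters' processing notes, the tools were BWA and edgeR and the build mm10, without roles or versions, and how reads with several matches were counted is not stated in the labels. Rn45s was left out of library sizes and tests. For the inhibitors, the 8 wells of a condition were summed into 36 libraries and fitted together with condition as a block. For NoStim wells, stimuli (60 min and later), interactions and time, single wells were fitted. Genes were filtered with filterByExpr (minimum count 10) for summed libraries and at a mean of 1 UMI per well for single wells. Tests were edgeR's quasi-likelihood tests with TMM scaling, called at a Benjamini-Hochberg adjusted p of 0.05 over all genes tested. Values after ± beside a log2 change are the SE, taken as the absolute change divided by the square root of the test's F statistic. Intervals at the 95% level add and subtract the SE times the matching quantile of a normal distribution, so they are wider than ± SE. The tests were tried on simulated data. Named genes were the largest passing changes of each comparison, the 5 most and 5 least abundant members and a fixed set by function, and others are said to be chosen later or stand in lists. Results for some genes are not reported here. Members and lists were chosen with earlier results of these data known. Alternatives covered counts, scaling, filters, Rn45s, blocks, times, single wells, DESeq2 and left-out libraries. Software was R 4.3.3, edgeR 4.0.16, limma 3.58.1 and DESeq2 1.42.0.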

Additional observations from a re-analysis of the deposited data

Results flagged for a closer look

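In 5 of 108 groups of 8 wells, 1 well stood apart from the other wells of its condition by Dixon's criterion at the 95% level, and chance flags about 1 in 20 groups. All 5 concerned Rpl5. In R848 at 120 min its level was 8642 CPM in DMSO (median of the group 1548), 7429 in dCA (median 2086) and 8988 in BRD-6989 (median 1824). In LPS at 45 min it was 4623 in DMSO (median 1671) and 3687 in dCA (median 1984). The R848 well was the same position on all 3 plates.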

How the results depend on the processing

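Of the counts and shares that answer a comparison, 397 values under an alternative stayed within 1.5 times (shares: 1 SD) of the reported one and 55 did not. Of values for single genes, 2630 kept direction and side of the threshold, 566 kept the direction only and 23 changed sign. Counts in this section stand without shares of all genes, except where these are given above. They show how calls depend on settings, and not whether members shifted apart from other genes. With the Rn45s share as a covariate, 35 members rose with dCA and 4 with BRD-6989, 0 with BRD-6989 in NoStim wells, 2 rose and 2 fell with Poly(I:C), and 3 fell with LPS, 1 with MDP_LPS and 3 with R848. As single wells with that covariate, an alternative added after seeing the data, 35 rose with dCA, 20 rose and 5 fell with BRD-6989, and 19 were higher and 2 lower with dCA than with BRD-6989. As single wells without it the latter were 5 and 7. With a filter at a mean of 100 counts, 44 members rose with dCA, 4 fell with BRD-6989 and 7 were lower with dCA than with BRD-6989. Without TMM, 3 fell with BRD-6989 and 7 were higher with dCA than with BRD-6989. With DESeq2, 2 fell with BRD-6989 and 1 rose with dCA in NoStim wells. From 60 min on, 4 were higher with dCA than with BRD-6989.

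No label says that wells of 1 condition on different plates are paired. Their deviations correlated at 0.014 to 0.25 over 36 pairs, with 12 above 0.1, and 18 of 36 summed libraries correlated best with their own condition. Without the replicate block by condition 55 members rose with dCA, 38 with BRD-6989 and 4 were higher with dCA than with BRD-6989, and without the block by time 1 rose with BRD-6989 in NoStim wells. On total reads 1 rose there, 0 fell with LPS and 1 with MDP_LPS. In DMSO wells only, 0 fell with LPS, 0 with R848, and 1 rose with Poly(I:C). Without the 120 min wells, and again in wells of 15 to 45 min, both added later, 0 rose and 0 fell with R848 and 0 fell with LPS, and at 15 to 45 min 4 rose with Poly(I:C). Over time, 0 fell in NoStim wells only and 2 without the 30 min wells. Leaving out 1 condition, time or plate at a time gave 61 to 70 risers with dCA, 41 to 47 risers and 0 to 1 fallers with BRD-6989, 8 to 12 members higher with dCA than with BRD-6989, and in NoStim wells 0 to 1 risers with dCA and 2 to 4 with BRD-6989. By plate it gave 5 to 10 risers with Poly(I:C), 0 to 0 fallers with LPS, 0 to 0 with R848 and 0 to 12 over time. With Rn45s kept in the total, the members' shares were 3.9% in DMSO, 4.88% in dCA and 5.22% with BRD-6989.

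Signs turned for the following log2 changes, none of which passed the threshold in the alternative. With BRD-6989 and the Rn45s share as a covariate they were Rpl10 -0.10, Rpl13 -0.050, Rpl18 -0.15, Rpl30 -0.019, Rpl32 -0.023, Rplp1 -0.12, Rplp2 -0.0027, Rps10 -0.11, Rps15a -0.20, Rps19 -0.23, Rps23 -0.056, Rps24 -0.055, Rps25 -0.017, Rps27l -0.075, Rps28 -0.32 and Rps6 -0.027. As single wells with the covariate they were Rpl10 -0.014, Rps19 -0.053 and Rps28 -0.0086. At 15 to 45 min with R848 they were Rpl36a 0.16 and Rpl5 -0.021, and over time in NoStim wells Rpl13a 0.0087 and Rps21 0.019 per hour. The causes of these shifts were not tested. The low counts of Rpl7l1 and Rpl22l1 limit what can be read from them, and single wells hold few UMI per member.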
